A study of Mus musculus with 16 samples.

Results

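The genes described here encode glycoproteins, proteoglycans and elastic fibre proteins of the extracellular matrix. They were 43 genes named by symbol, out of 38087 gene rows in experiment A and 54232 in experiment B. They were chosen by what they encode, with earlier results of these data known. Shares over all genes are therefore set beside theirs only as a description. All 43 genes were found once in each experiment. They comprised 12 elastic fibre genes, 7 small leucine-rich proteoglycan genes, 2 large proteoglycan genes, 11 structural and basement membrane glycoprotein genes, and 11 genes of matricellular and other glycoproteins. RNA was sequenced from hearts of C57BL/6 mice in a study of dilated cardiomyopathy that follows the loss of CAP2, a protein that binds actin monomers. Experiment A compared 3 CAP2 -/- hearts with 3 wild-type hearts, all from females aged 86 weeks. Experiment B compared hearts of mice aged 13 weeks, all homozygous for a loxP allele. In it 4 Cre+ hearts (3 female, 1 male) carried a Cre transgene under the Myh6 promoter, which acts in cardiomyocytes, and 5 loxP controls (3 female, 2 male) carried no Cre. Every Cre+ heart lost Cap2 and carried Cre at once, so the effects of either cannot be told apart, and recombination was directed to cardiomyocytes and not to the fibroblasts that make most of the matrix. A further Cre+ library was labelled but was not analysed here. RNA came from frozen heart tissue with all its cell types, so fewer cells of a type and less RNA per cell cannot be told apart.

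The cardiac matrix carries force between muscle cells and stores growth factors. Elastic fibres form when elastin is laid onto microfibrils of fibrillin with the help of fibulins, EMILIN and microfibril-associated proteins. Small leucine-rich proteoglycans such as decorin and biglycan bind collagen and steer the growth of its fibrils, while matricellular proteins such as periostin, tenascin C and SPARC are made mainly when tissue is remodelled and act on cells more than as structure. In the heart most of these genes are expressed by fibroblasts, with contributions from vascular, valvular and mesothelial cells.

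Estimated counts totalled 10750175 to 27440478 per library in experiment A. For experiment B the depth is unknown; nuclear genes summed to 3815980 to 4044523 normalized counts per library. Mitochondrially encoded genes took 23% to 52.7% of all normalized counts in Cre+ hearts and 30.4% to 69.5% in loxP controls. Cap2 itself stood at 8.36 to 16.1 CPM in CAP2 -/- hearts, against 197 to 228 CPM in wild type, and had a log2 fold change of -2.22 in Cre+ hearts over loxP controls, without overlap. The cardiomyocyte markers were high in every library, at sums of 57689.8 CPM and above in experiment A and 137177 normalized counts and above in experiment B. Atrial markers varied widely among the libraries of experiment B, at sums of 671 to 44132 normalized counts in Cre+ hearts and 109 to 7992 in loxP controls. The labels give each library its own number, without stating in words that each is a separate animal, and each p-value reflects the spread between these libraries alone.

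In the aged hearts of experiment A, 7 of the 42 matrix genes tested rose in CAP2 -/- and none fell. A gene is termed called where its p, adjusted over all genes tested by Benjamini-Hochberg, is under 0.05 (here edgeR, a quasi-likelihood test of counts). Those that rose were Mfap5, Bgn, Mgp, Vcan, Igfbp7, Mfap4 and Prelp. Of all 16297 genes tested, 1.35% were called, 0.841% higher and 0.509% lower. The fold change was above 0 for 34 of the 42 genes, against 50.9% of all genes tested. The median log2 fold change of the 42 was 0.29, against 0.0057 over all genes. Cthrc1 was too low to be tested. At an unadjusted p under 0.05, 18 matrix genes were higher, against 5.11% of all genes, and 1, Efemp1, was lower, against 5.32%. With DESeq2, 11 were called higher, against 1.36% of the genes with an adjusted p, and 0 lower, and 2.36% of those genes were called in either direction.

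**Figure D1:**
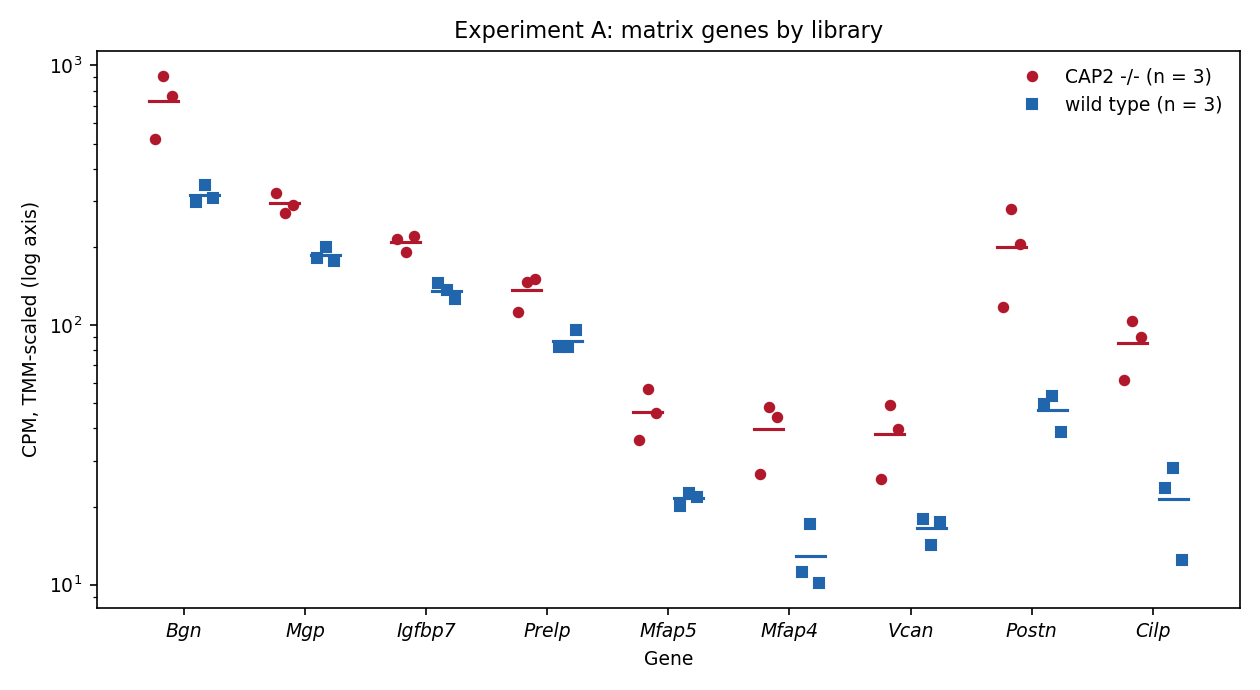
Expression of 9 matrix genes in each library of experiment A, in CPM on a log axis. Each point is a library, circles for CAP2 -/- (n = 3) and squares for wild type (n = 3), and bars are group means. The first 7 genes were called. Postn and Cilp were not called and had the largest log2 fold changes among the 42 genes tested. In all 9 genes every CAP2 -/- library lay above every wild-type library.

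Promoter sequences are shown for a gene that rose in both experiments, Bgn, and for the tested genes with the largest log2 fold changes in experiment A, Postn and Cilp. Each window holds 300 bases, 250 before the start of transcription and 50 after it, on the plus strand of GRCm38.p6 as given by RefSeq. The Bgn window was chrX:73483351-73483650, the Postn window chr3:54360857-54361156 and the Cilp window chr9:65264930-65265229. Capitals mark the motif TATAAA, found once, in Postn, at position -26 from the start. Windows were available for 28 of the 43 genes, 37 windows in all. TATAAA was searched on both strands, as were TGANTCA (the motif of AP-1), GGAATG (that of TEAD factors) and the CArG box bound by SRF. TATAAA was present in 21.6% of the 37 windows and in 13.6% of all 32851 promoter windows. TGANTCA was in 8.11% of them and 7.81% of all windows, GGAATG in 8.11% and 14.7%. The CArG box, whose middle can overlap TATAAA, was in 0 of the 37 and in 1.63% of all windows.
Bgn: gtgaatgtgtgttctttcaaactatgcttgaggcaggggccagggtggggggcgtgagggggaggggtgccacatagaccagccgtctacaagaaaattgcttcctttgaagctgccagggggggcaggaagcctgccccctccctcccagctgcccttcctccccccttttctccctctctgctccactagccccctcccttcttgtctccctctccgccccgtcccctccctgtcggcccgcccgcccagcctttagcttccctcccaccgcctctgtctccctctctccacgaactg
Postn: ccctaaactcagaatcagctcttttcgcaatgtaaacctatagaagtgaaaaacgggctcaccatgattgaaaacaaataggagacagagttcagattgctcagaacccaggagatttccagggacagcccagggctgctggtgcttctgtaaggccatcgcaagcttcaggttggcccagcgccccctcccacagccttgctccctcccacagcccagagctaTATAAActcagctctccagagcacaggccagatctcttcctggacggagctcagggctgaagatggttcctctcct
Cilp: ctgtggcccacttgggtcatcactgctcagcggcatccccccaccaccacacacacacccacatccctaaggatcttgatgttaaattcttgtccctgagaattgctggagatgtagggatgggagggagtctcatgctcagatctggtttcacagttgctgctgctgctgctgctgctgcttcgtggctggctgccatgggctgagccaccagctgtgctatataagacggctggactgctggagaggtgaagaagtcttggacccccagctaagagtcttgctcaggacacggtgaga

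Of the 12 elastic fibre genes, 2 rose in CAP2 -/- hearts, and both encode microfibril-associated proteins. Mfap5 (ENSMUSG00000030116, chromosome 6, 122505845 to 122529290, mm10), whose product binds fibrillin microfibrils, had 36.2, 56.7 and 46 CPM in CAP2 -/- hearts, against 20.1, 22.6 and 21.8 CPM in wild type. Mfap4 (ENSMUSG00000042436, chromosome 11, 61485431 to 61488900), whose product binds both elastin and fibrillin, had 26.8, 48.3 and 44.3 CPM in CAP2 -/- hearts, against 11.2, 17.2 and 10.2 CPM in wild type. In both genes the lowest CAP2 -/- library exceeded the highest wild-type library. The log2 fold change was 1.11 for Mfap5 (SE 0.16, edgeR adjusted p = 9.43e-04) and 1.65 for Mfap4 (SE 0.25, edgeR adjusted p = 0.0107). The core of the fibre itself was not called. Fbn1, fibrillin-1, averaged 95.4 ± 21.5 CPM in CAP2 -/- hearts and 79.2 ± 22.2 CPM in wild type (SD, n = 3 each), and Eln, elastin, 12.5 ± 1.99 CPM in CAP2 -/- hearts and 10 ± 4.77 CPM in wild type, with overlapping groups in both genes. Fbln2, a fibulin that binds fibrillin and fibronectin, lay at 196 to 241 CPM in CAP2 -/- hearts and 125 to 178 CPM in wild type without overlap, and missed the threshold (log2 fold change 0.54, SE 0.14, edgeR adjusted p = 0.0669). Efemp1, another fibulin (also called fibulin-3), went the other way, with 9.75, 8.72 and 10.9 CPM in CAP2 -/- hearts and 14.5, 16.6 and 14.1 CPM in wild type. It was not called (log2 fold change -0.62, SE 0.18, edgeR adjusted p = 0.128). The remaining 6 elastic fibre genes, Fbn2, Emilin1, Fbln1, Fbln5, Efemp2 and Mfap2, had log2 fold changes between -0.29 and 0.31.

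All 7 small leucine-rich proteoglycan genes had fold changes above 0 in experiment A, and Bgn and Prelp were called. Bgn, biglycan (ENSMUSG00000031375, chromosome X, 73483602 to 73495933), had 520, 910 and 764 CPM in CAP2 -/- hearts, against 297, 347 and 310 CPM in wild type. Prelp, a proteoglycan that anchors basement membranes to collagen (chromosome 1, 133910304 to 133921414), had 112, 147 and 151 CPM in CAP2 -/- hearts, against 82.6, 82.3 and 95.9 CPM in wild type. Neither gene's groups overlapped. The log2 fold change was 1.20 for Bgn (SE 0.18, edgeR adjusted p = 0.00415) and 0.65 for Prelp (SE 0.13, edgeR adjusted p = 0.0178). Fmod, fibromodulin, which regulates collagen cross-linking, had 11.9, 9.3 and 21.3 CPM in CAP2 -/- hearts and 5.91, 7.53 and 6.9 CPM in wild type (log2 fold change 1.07, SE 0.27, edgeR adjusted p = 0.0779). Its groups did not overlap. Dcn, decorin, was among the most abundant of the 43 and had 775, 564 and 624 CPM in CAP2 -/- hearts, against 374, 532 and 495 CPM in wild type. Its groups stood apart by a narrow margin and it was not called (log2 fold change 0.49, SE 0.15, edgeR adjusted p = 0.156). Lum and Ogn, lumican and osteoglycin, differed least in this class, with log2 fold changes of 0.13 and 0.034, and Aspn, asporin, had 0.49.

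Of the pair of large proteoglycans 1 rose. Vcan, versican, a hyaluronan-binding proteoglycan of provisional matrix (chromosome 13, 89655312 to 89742509), had 25.6, 49.1 and 39.8 CPM in CAP2 -/- hearts, against 17.9, 14.2 and 17.5 CPM in wild type. The groups did not overlap (log2 fold change 1.21, SE 0.21, edgeR adjusted p = 0.0081). Hspg2, perlecan, the large heparan sulphate proteoglycan of basement membranes, had 563, 444 and 645 CPM in CAP2 -/- hearts and 815, 575 and 510 CPM in wild type, with overlapping groups (log2 fold change -0.20, SE 0.19, edgeR adjusted p = 0.789).

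Among 11 structural and basement membrane glycoproteins, Igfbp7 was called. Igfbp7, a secreted protein that binds insulin-like growth factors and lies in vascular basement membranes (chromosome 5, 77349240 to 77408041), had 214, 192 and 220 CPM in CAP2 -/- hearts, against 145, 136 and 126 CPM in wild type. The groups did not overlap and were tight (log2 fold change 0.62, SE 0.11, edgeR adjusted p = 0.00836). The nidogens, which link laminin to collagen IV, differed little, with log2 fold changes of 0.016 for Nid1 and -0.036 for Nid2. The other 8 members, Fn1, Tnxb, Matn2, Npnt, Tgfbi, Dpt, Ecm1 and Ecm2, had log2 fold changes between -0.35 for Npnt, which stood at 1.51 CPM or less in every library, and 0.41 for Fn1.

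Fn1, fibronectin, is spliced into forms with and without the cassette exons EIIIA and EIIIB, and the deposited exon rows allowed its splicing to be read in experiment A. The EIIIA exon is shown because its inclusion marks the cellular form of fibronectin laid down in injured tissue. It lies at chr1:71603660-71603929 on the minus strand of mm10, holds 270 bases, and is skipped by 4 of the 8 GENCODE M21 transcripts that span it. It is printed 5′ to 3′ along the transcript, in lower case with no base marked.
EIIIA: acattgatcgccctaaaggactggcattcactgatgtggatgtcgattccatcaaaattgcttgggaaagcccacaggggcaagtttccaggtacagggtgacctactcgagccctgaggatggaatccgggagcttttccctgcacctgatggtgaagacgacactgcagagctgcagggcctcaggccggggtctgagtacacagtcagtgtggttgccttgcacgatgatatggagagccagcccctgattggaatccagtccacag

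The read density of this exon was 29.6%, 27.9% and 16.4% of that of 39 constitutive Fn1 exons in CAP2 -/- hearts, against 24%, 28.7% and 38.4% in wild type. The groups overlapped. They averaged 24.6% ± 7.18 in CAP2 -/- hearts and 30.3% ± 7.35 in wild type (SD, n = 3 each), a difference of -5.71 percentage points (exact two-sided permutation p = 0.5, where 0.1 is the smallest p that 3 against 3 allow). These shares rest on 9 to 15 estimated reads of the exon in each CAP2 -/- library and 9.48 to 20.6 in each wild-type library. The 273-base exon EIIIB had 3.9, 0 and 0 reads in CAP2 -/- hearts and 0, 0 and 1 reads in wild type, too few for a comparison.

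The matricellular and other glycoproteins held both the largest fold changes of experiment A and 1 call. Mgp, matrix Gla protein, an inhibitor of calcification (chromosome 6, 136872435 to 136875823), had 324, 270 and 289 CPM in CAP2 -/- hearts, against 181, 199 and 177 CPM in wild type. The groups did not overlap (log2 fold change 0.67, SE 0.11, edgeR adjusted p = 0.00452). Postn, periostin, a product of activated fibroblasts (chromosome 3, 54361109 to 54391037), had 117, 280 and 205 CPM in CAP2 -/- hearts, against 49.8, 53.4 and 38.6 CPM in wild type. Cilp, cartilage intermediate layer protein, an antagonist of TGF-beta (chromosome 9, 65265180 to 65280605), had 61.3, 104 and 90.1 CPM in CAP2 -/- hearts, against 23.5, 28.1 and 12.4 CPM in wild type. In both genes the groups were clearly apart, with CAP2 -/- replicate 1 the lowest of its group. The log2 fold changes, the largest among the 42, missed the threshold, at 2.09 for Postn (SE 0.34, edgeR adjusted p = 0.0646) and 2.01 for Cilp (SE 0.35, edgeR adjusted p = 0.072). The adjusted p ranged from 5.63e-07 to 0.265 for Postn and from 1.18e-08 to 0.263 for Cilp over the alternatives, and DESeq2 called both.

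Sparc, a collagen-binding protein, had 317, 429 and 380 CPM in CAP2 -/- hearts, against 289, 280 and 286 CPM in wild type. The groups did not overlap, yet the gene was not called (log2 fold change 0.40, SE 0.12, edgeR adjusted p = 0.147). Sparcl1, its close relative, had 488, 487 and 505 CPM in CAP2 -/- hearts, against 406, 503 and 510 CPM in wild type. Its groups overlapped (log2 fold change 0.062, SE 0.12, edgeR adjusted p = 0.905). Cthrc1, a collagen triple helix repeat protein of injured arteries and activated fibroblasts, was barely expressed, at 0.272, 0.501 and 0.381 CPM in CAP2 -/- hearts and 0.0711, 0.0921 and 0.0585 CPM in wild type. The other 5 members, Tnc, Spp1, Smoc2, Spon1 and Spon2, had log2 fold changes between -0.34 for Spon2 and 0.88 for Tnc.

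**Figure D2:**
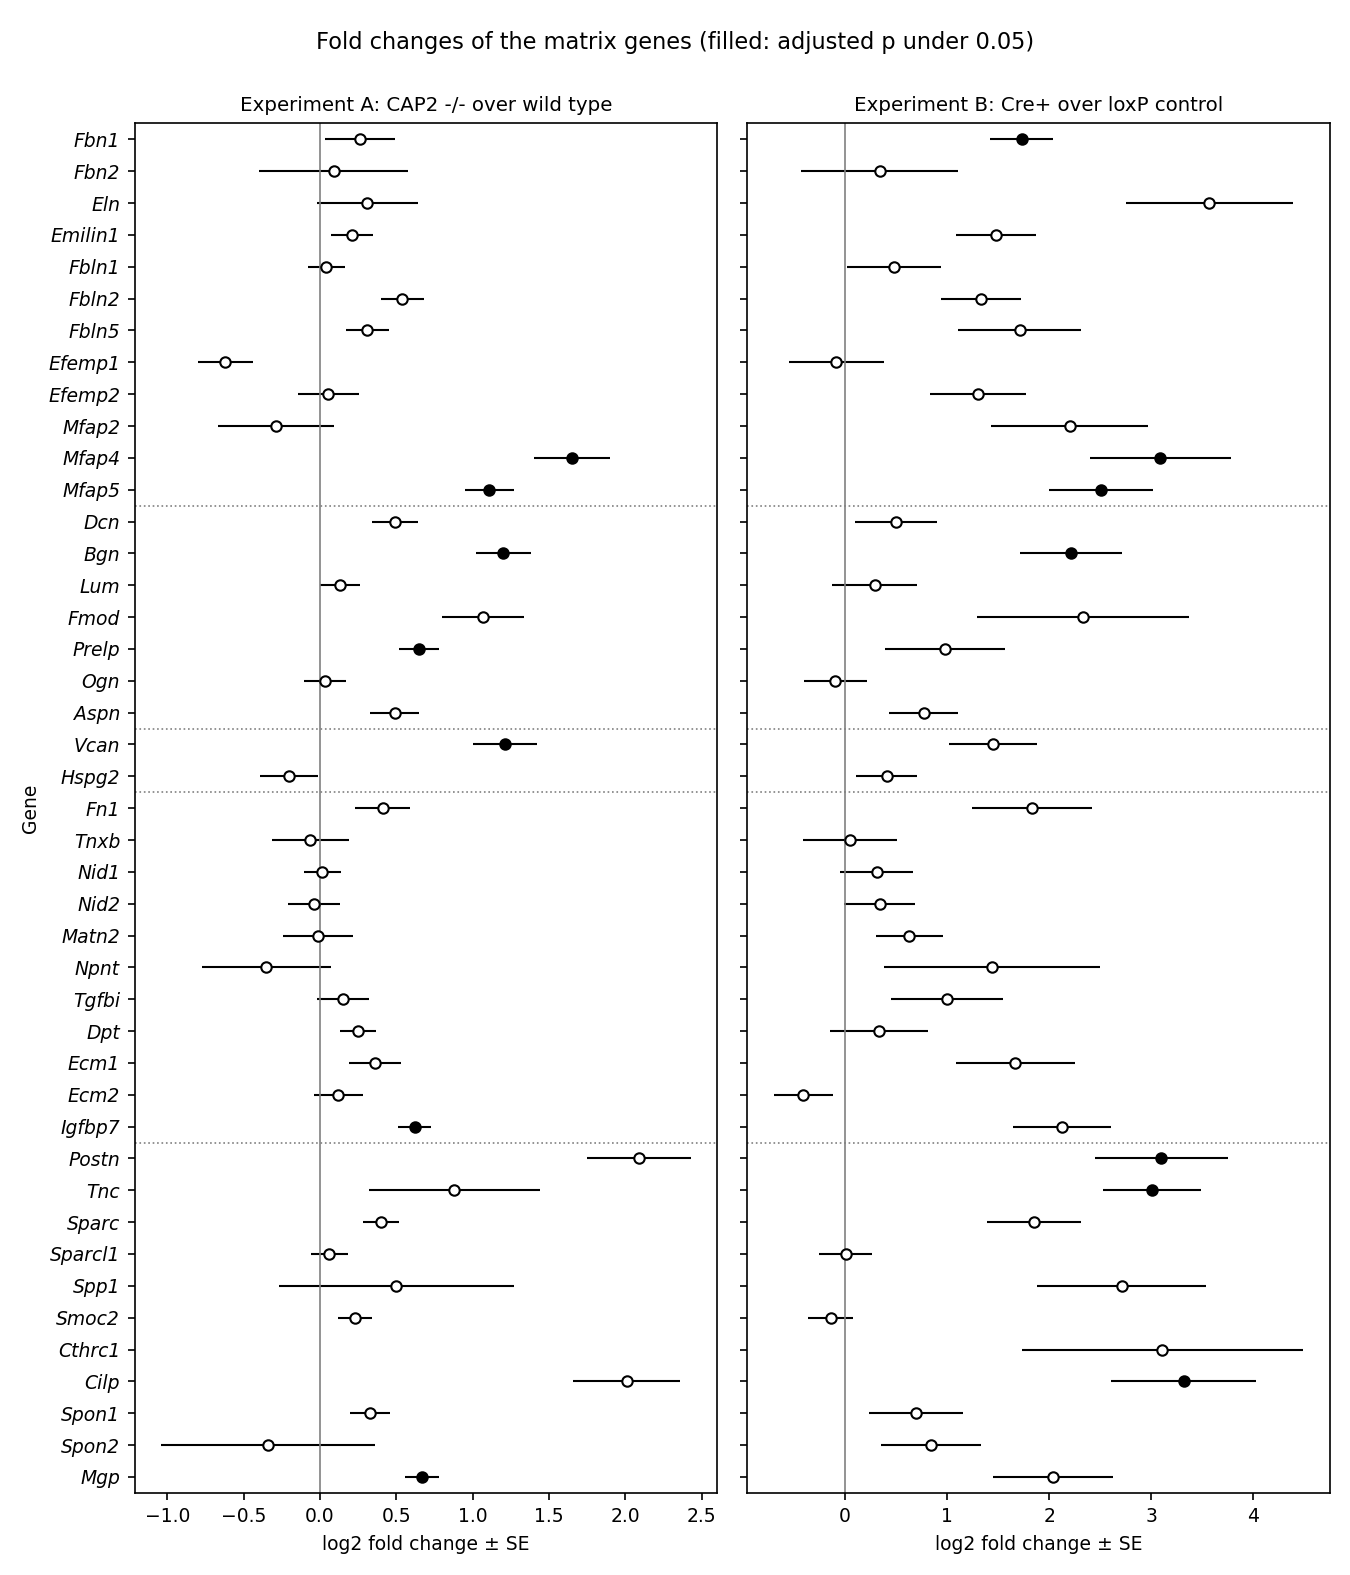
Log2 fold changes of the matrix genes with their standard errors, CAP2 -/- over wild type on the left and Cre+ over loxP control on the right. Standard errors on the left were derived from the edgeR F statistic, those on the right are from limma. The x axes have different ranges, genes run by class between dotted lines, and filled points have an adjusted p under 0.05. In each experiment 7 points are filled, all to the right of 0.

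Single libraries decided some calls of experiment A. Mfap5, Bgn and Mgp were called without any 1 of the 6 libraries. Vcan and Igfbp7 missed the threshold without CAP2 -/- replicate 3 or wild-type replicate 3, at edgeR adjusted p values of up to 0.0633 and 0.0745. Mfap4 missed it without CAP2 -/- replicate 3 or wild-type replicates 1 or 3 (up to 0.0747), and Prelp without CAP2 -/- replicates 2 or 3 or wild-type replicates 1 or 2 (up to 0.127). The number of matrix genes called was 3 without CAP2 -/- replicate 3 and 12 without CAP2 -/- replicate 1, which was the lowest of its group for 25 of the 43 genes, against 35.1% of all genes. Wild-type replicate 3 was the lowest of its group for 24 of the 43, against 33.6% of all genes, and 5 matrix genes were called without it. Every CAP2 -/- library lay above every wild-type library in 16 of the 42 genes, against 7.63% of all genes, and below in 2, Efemp1 and Npnt, against 8%. In the authors' deposited table for this comparison, 11 of the 43 genes were higher and 1, Efemp1, was lower at an adjusted p under 0.05, with a log2 fold change of -0.62 and an adjusted p of 0.0408 for Efemp1 in that table.

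General fibroblast markers overlapped between the groups of experiment A, and most markers of activated fibroblasts rose. The 9 fibroblast markers, among them Pdgfra and Tcf21, summed to 2043.7 to 2370.6 CPM in CAP2 -/- hearts and 1973.7 to 2422.2 CPM in wild type. None was called by edgeR or DESeq2, with 1 higher and 2 lower at an unadjusted p under 0.05. Fold changes were above 0 for 5 of the 9 and below 0 for 4, with a median log2 fold change of 0.027. The 8 markers of activated fibroblasts summed to 152 to 210 CPM in CAP2 -/- hearts and 38.4 to 48.3 CPM in wild type, and 5 of them rose, led by Comp and Thbs4. In CAP2 -/- hearts the markers of smooth muscle summed to 282 to 343 CPM, of endothelium to 888 to 940, of pericytes to 719 to 853, of macrophages to 427 to 567, of mesothelium to 32.9 to 48 and of cartilage and valves to 3.96 to 4.85. In wild type the same sums were 254 to 289 CPM for smooth muscle, 896 to 982 for endothelium, 854 to 913 for pericytes, 415 to 454 for macrophages, 37.1 to 64.5 for mesothelium and 3.72 to 4.87 for cartilage and valves. The pericyte sums did not overlap, by a narrow margin, and 5 of the 6 pericyte markers had fold changes below 0. At an unadjusted p under 0.05, 2 pericyte, 1 endothelial and 1 mesothelial marker were lower and 2 smooth muscle markers higher. Of these, edgeR called none, and DESeq2 called Vtn (pericyte) and Tie1 (endothelium) lower. Of the cardiomyocyte markers DESeq2 called Ryr2 lower. The part of these cell types in the matrix gene results was not tested. The 6 atrial markers summed to 55.7 to 62.3 CPM in CAP2 -/- hearts and 46.9 to 49.5 CPM in wild type, without overlap. Of the 5 tested, Dkk3 rose, Myl4 and Bmp10 were also higher without overlap and were called by DESeq2, Stard10 was lower without overlap, and the median log2 fold change was 0.76. Myl7, which marks atrial muscle, stood at 1.12 to 1.74 CPM in CAP2 -/- hearts and 1.1 to 1.32 CPM in wild type. The part of atrial tissue in the matrix gene results was not tested.

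In the young hearts of experiment B, 7 of the 43 matrix genes rose in Cre+ and none fell. They were Tnc, Fbn1, Mfap5, Postn, Cilp, Mfap4 and Bgn, in order of p (limma, on the log2 of the normalized count plus 1, including sex in the model). The added 1 makes fold changes of low genes too small. Of all 12141 genes tested, 1.88% were called, 0.947% were called higher and 0.931% lower. The fold change was above 0 for 39 of the 43, against 41.5% of all genes tested, and the median log2 fold change of the 43 was 1.33, against -0.12 over all genes. At an unadjusted p under 0.05, 22 matrix genes were higher, against 7.89% of all genes, and 0 lower. Over all genes the calls were 115 higher and 113 lower. TMM scaling moved this split to 151 higher and 67 lower. Quantile normalization moved it to 211 and 124. In the matrix set, 9 genes were called higher and 0 lower under either.

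The matrix genes also varied strongly within each group. Summed over the 43 genes, normalized counts were 51616, 81218, 126697 and 47070 in Cre+ replicates 1 to 4, against 17327, 27031, 35979, 13093 and 43879 in loxP control replicates 1 to 5. The highest control thus came close to the lowest Cre+ heart. Cre+ replicate 3 was the highest of its group for 33 of the 43 genes, against 34% of all genes tested, and loxP control replicate 5, a male, was the highest of its group for 37 of the 43, against 15% of all genes. Atrial markers summed to 671, 20171, 44132 and 43918 normalized counts in Cre+ replicates 1 to 4 and to 347, 1031, 7992, 109 and 1067 in loxP control replicates 1 to 5, and mesothelial markers to 339, 283, 568 and 564 in Cre+ and 37, 127, 160, 155 and 869 in loxP controls. All 6 atrial markers had fold changes above 0 in Cre+ hearts, with a median log2 fold change of 4.03. None was called by limma, and 2 were higher at an unadjusted p under 0.05. Atrial markers thus differed within and between the groups, and their part in these results was not tested beyond a fit with the marker level as a covariate. In that fit no matrix gene was called, and the median log2 fold change of the 43 was 0.56, against 1.33 without the covariate.

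**Figure D3:**
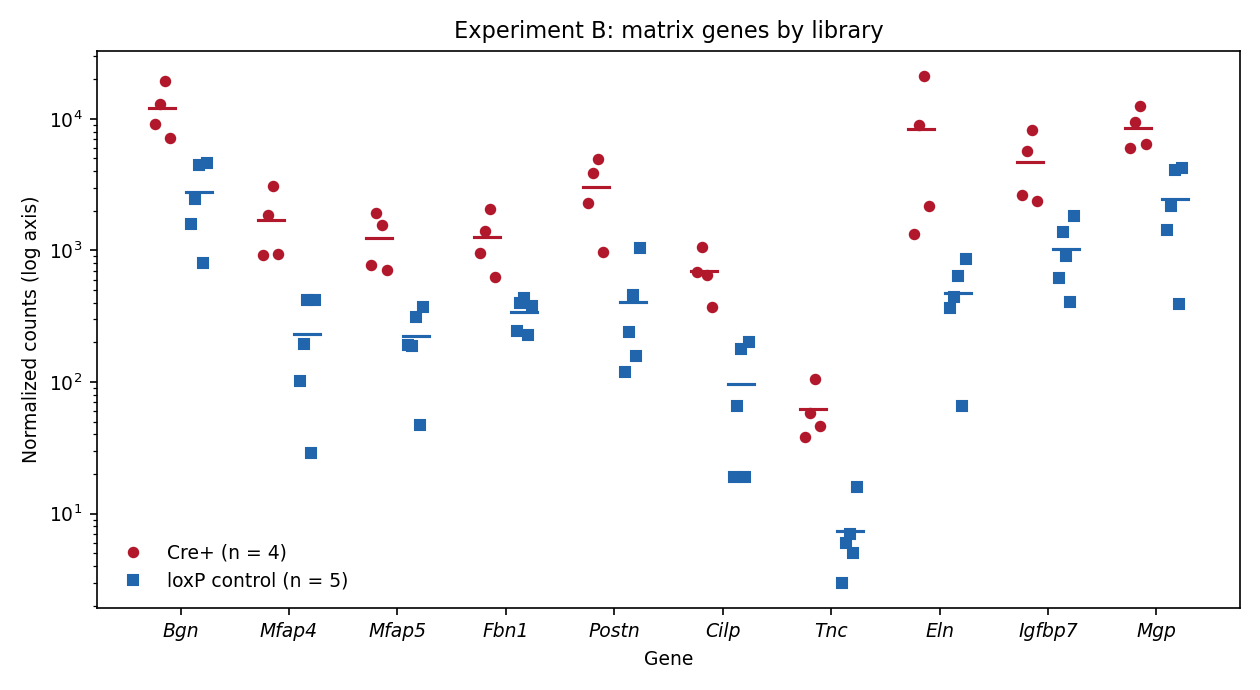
Normalized counts of 10 matrix genes in each library of experiment B, on a log axis. Each point is a library, circles for Cre+ (n = 4) and squares for loxP control (n = 5), and bars are group means. The first 7 genes were called; Eln, Igfbp7 and Mgp were not. Postn is the gene whose groups overlap, with 980 in Cre+ replicate 4 and 1046 in loxP control replicate 5.

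Of the elastic fibre genes 3 rose in Cre+ hearts, all of them microfibril genes. Fbn1, fibrillin-1 (chromosome 2, 125300594 to 125507993), had 962, 1410, 2063 and 629 normalized counts in Cre+ hearts, against 246, 397, 437, 229 and 380 in loxP controls. Mfap5 had 776, 1929, 1561 and 710 normalized counts in Cre+ hearts, against 191, 189, 311, 47 and 374 in loxP controls. Mfap4 had 922, 1867, 3088 and 936 normalized counts in Cre+ hearts, against 102, 193, 417, 29 and 423 in loxP controls. In all 3 genes every Cre+ heart lay above every control. The log2 fold change was 1.73 for Fbn1 (SE 0.31, limma adjusted p = 0.0247), 2.51 for Mfap5 (SE 0.51, limma adjusted p = 0.0377) and 3.09 for Mfap4 (SE 0.69, limma adjusted p = 0.0477).

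Eln had the largest fitted log2 fold change of the 43 genes in experiment B and was not called. By the ratio of group means Cthrc1, which was near 0 in the controls, was ahead, at 73.8 against 17.6 for Eln. Eln had 1326, 8942, 21109 and 2162 normalized counts in Cre+ hearts, against 366, 441, 637, 66 and 866 in loxP controls (log2 fold change 3.57, SE 0.82, limma adjusted p = 0.0559). The groups did not overlap, with Cre+ replicates 2 and 3 far above Cre+ replicates 1 and 4. Emilin1, which lies between elastin and the microfibril, stood at 372 to 770 normalized counts in Cre+ hearts and 69 to 250 in loxP controls, without overlap (log2 fold change 1.48, SE 0.39, limma adjusted p = 0.0766). The fibulin gene Fbln5, whose product is needed for elastic fibre assembly, had a log2 fold change of 1.71 (limma adjusted p = 0.145), Fbln2 1.33, Efemp2 1.30 and Mfap2 2.20, with overlapping groups. Fbln1, Fbn2 and Efemp1 had log2 fold changes of 0.48, 0.34 and -0.083, and that of Efemp1 was 0.013 after TMM scaling and 0.032 after quantile normalization.

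Of the small leucine-rich proteoglycans Bgn was called in experiment B. It had 9178, 12937, 19354 and 7206 normalized counts in Cre+ hearts, against 1575, 2455, 4464, 805 and 4596 in loxP controls, and the groups did not overlap (log2 fold change 2.21, SE 0.50, limma adjusted p = 0.0488). Dcn had 5475, 4147, 5999 and 4726 normalized counts in Cre+ hearts and 1770, 3394, 5895, 2448 and 7096 in loxP controls, with every Cre+ heart inside the range of the controls (log2 fold change 0.50, SE 0.40, limma adjusted p = 0.477). Fmod spread over 160 to 799 normalized counts in Cre+ hearts and 8 to 499 in loxP controls (log2 fold change 2.33, SE 1.04, limma adjusted p = 0.226). Lum, Ogn, Prelp and Aspn overlapped between the groups, with log2 fold changes of 0.29, -0.093 (0.0031 after TMM scaling), 0.98 and 0.77. Neither large proteoglycan was called by limma, with 1 of them, Vcan, higher at an unadjusted p under 0.05. Vcan averaged 226 ± 81.8 normalized counts in Cre+ hearts (SD, n = 4) and 92.4 ± 62.1 in loxP controls (SD, n = 5). Its log2 fold change was 1.45 (limma adjusted p = 0.102), and Hspg2 had 0.41.

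No structural or basement membrane glycoprotein was called by limma in experiment B, with 3 of 11 higher at an unadjusted p under 0.05. The nearest to the threshold was Igfbp7, with 2618, 5715, 8187 and 2354 normalized counts in Cre+ hearts, against 615, 1375, 904, 409 and 1817 in loxP controls. Its groups did not overlap (log2 fold change 2.13, SE 0.48, limma adjusted p = 0.0512). Ecm1 was also without overlap, at 940 to 1480 normalized counts in Cre+ hearts and 66 to 726 in loxP controls (log2 fold change 1.67, SE 0.58, limma adjusted p = 0.14). Fn1 had 492, 1479, 3323 and 506 normalized counts in Cre+ hearts and 188, 246, 372, 162 and 670 in loxP controls, so that the highest control exceeded 2 of the Cre+ hearts (log2 fold change 1.83, SE 0.59, limma adjusted p = 0.122). The log2 fold changes of the other 8 genes, Tnxb, Nid1, Nid2, Matn2, Npnt, Tgfbi, Dpt and Ecm2, ran between -0.41 for Ecm2 and 1.44 for Npnt.

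Of the matricellular and other glycoproteins 3 rose in Cre+ hearts. Tnc, tenascin C, an anti-adhesive protein that is scarce in the healthy adult heart (chromosome 4, 63959785 to 64047015), had 38, 58, 106 and 46 normalized counts in Cre+ hearts, against 3, 6, 7, 5 and 16 in loxP controls. Cilp had 690, 1069, 651 and 374 normalized counts in Cre+ hearts, against 19, 66, 179, 19 and 201 in loxP controls. Postn had 2287, 3905, 4982 and 980 normalized counts in Cre+ hearts, against 119, 238, 456, 157 and 1046 in loxP controls. The groups of Tnc and Cilp did not overlap, and those of Postn did through the males, Cre+ replicate 4 and loxP control replicate 5. The log2 fold change was 3.01 for Tnc (SE 0.48, limma adjusted p = 0.0147), 3.32 for Cilp (SE 0.71, limma adjusted p = 0.0424) and 3.10 for Postn (SE 0.65, limma adjusted p = 0.0407).

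Other genes of the same class were not called. Spp1, osteopontin, a cytokine-like matrix protein made by macrophages among other cells, had 20, 15, 69 and 19 normalized counts in Cre+ hearts and 0, 3, 9, 1 and 13 in loxP controls (log2 fold change 2.71, SE 0.83, limma adjusted p = 0.109). Cthrc1 had 0, 47, 186 and 3 normalized counts in Cre+ hearts and 0, 0, 1, 0 and 3 in loxP controls, a level set by Cre+ replicates 2 and 3 (log2 fold change 3.11, SE 1.38, limma adjusted p = 0.216). Sparc had 5676, 13476, 20247 and 4577 normalized counts in Cre+ hearts, against 2222, 2829, 2177, 1385 and 4323 in loxP controls, without overlap (log2 fold change 1.85, SE 0.46, limma adjusted p = 0.0648). Mgp was also without overlap, with 5951, 9428, 12429 and 6447 normalized counts in Cre+ hearts, against 1438, 2193, 4072, 394 and 4198 in loxP controls (log2 fold change 2.04, SE 0.59, limma adjusted p = 0.0965). Sparcl1 and Smoc2, a calcium-binding relative of SPARC, differed least. Sparcl1 had 1457, 1540, 1640 and 1419 normalized counts in Cre+ hearts and 944, 1884, 1487, 1487 and 2170 in loxP controls (log2 fold change 0.0053, or -0.092 after quantile normalization, SE 0.26, limma adjusted p = 0.992), and Smoc2 a log2 fold change of -0.14. Spon1 and Spon2 had 0.70 and 0.84.

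No call of experiment B held in all alternatives. No matrix gene was called by limma without Cre+ replicate 2, without Cre+ replicate 3 or without loxP control replicate 2, and Tnc alone was called without control replicate 1. Cilp and Tnc were called without control replicate 3, Fbn1, Postn and Tnc without Cre+ replicate 4, and 18 genes without control replicate 5. None was called with the mitochondrial share or the atrial marker level as a further covariate, a fit chosen after seeing the data in the case of the atrial markers. The median log2 fold change of the 43 was 1.34 with the mitochondrial share and 36 genes of all those tested were called, while it was 0.56 with the atrial markers and 20 genes were called. With the 6 females alone 12 matrix genes were called, the 7 among them, and the other 5 were Fbln2, Igfbp7, Mgp, Sparc and Vcan. Every Cre+ library lay above every control in 13 of the 43 genes, against 3.87% of all genes tested, and below in 0, against 4.79%.

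Cell markers in experiment B moved in part with the matrix genes. The 9 fibroblast markers summed to 14060 to 19745 normalized counts in Cre+ hearts and 4840 to 19088 in loxP controls. Gsn made up most of each sum, at 10254 to 17647 normalized counts in Cre+ hearts and 3873 to 16581 in loxP controls. Fold changes were above 0 for 8 of the 9, with a median log2 fold change of 0.78. At an unadjusted p under 0.05, 4 were higher and 1 lower. Scara5 alone was called, lower in Cre+ hearts (log2 fold change -1.43, limma adjusted p = 0.0353). The 8 activated fibroblast markers summed to 2113 to 4808 normalized counts in Cre+ hearts and 179 to 1162 in loxP controls. Of these markers Thbs4, Ltbp2 and Ccn5 (listed as Wisp2) rose. Fold changes were above 0 for 7 of the 8. At an unadjusted p under 0.05, 6 were higher and 1, Fap, was lower (log2 fold change -1.10). In Cre+ hearts the markers of smooth muscle summed to 2046 to 7112 normalized counts, of macrophages to 2679 to 5390, of endothelium to 3305 to 4815, of pericytes to 2947 to 4417 and of cartilage and valves to 28 to 193. In loxP controls the same sums were 624 to 4813 for smooth muscle, 1435 to 3896 for macrophages, 2859 to 5053 for endothelium, 3364 to 6359 for pericytes and 3 to 175 for cartilage and valves. No marker of these 5 cell types was called, with 2 smooth muscle and 2 macrophage markers higher and 1 pericyte marker lower at an unadjusted p under 0.05. All 6 smooth muscle markers (median log2 fold change 0.78) and all 8 macrophage markers (0.56) had fold changes above 0. So had the 2 cartilage and valve markers tested (0.87). Below 0 were 5 of the 6 pericyte markers (median -0.38) and 4 of the 7 endothelial markers (-0.25). All 6 mesothelial markers had fold changes above 0, with a median of 2.01 on the log2 scale, and none was called by limma, with 4 higher at an unadjusted p under 0.05. Of the cardiomyocyte markers Pln, phospholamban, fell (log2 fold change -1.53, limma adjusted p = 0.0333), with 2161 to 3096 normalized counts in Cre+ hearts and 6017 to 17025 in loxP controls. Their part in the matrix gene results was not tested.

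Levels per length put the same few genes at the top of the 43 in both experiments, with counts divided by the length of the longest transcript. In CAP2 -/- hearts Mgp had 477 CPM per kilobase, Dcn 372, Bgn 302, Sparcl1 179, Igfbp7 174 and Sparc 163. In wild type Mgp had 301 CPM per kilobase, Dcn 265, Bgn 132, Sparcl1 171, Igfbp7 113 and Sparc 124. In Cre+ hearts Mgp had 13879.7 normalized counts per kilobase, Bgn 5030.5, Sparc 4780, Igfbp7 3932.1 and Dcn 2893.5. In loxP controls Mgp had 3985.4, Dcn 2343.9, Bgn 1148.8, Sparc 1124.9 and Igfbp7 853. The groups of Bgn and Igfbp7 did not overlap in either experiment, nor did those of Mgp and Sparc, while those of Dcn overlapped in experiment B and those of Sparcl1 in both. Bgn thus stood below Dcn in wild-type hearts and in loxP controls, and above it in Cre+ hearts. In CAP2 -/- hearts Bgn averaged less per kilobase than Dcn. Fbn2, the fibrillin of the embryo, was the lowest of the 43 in both experiments.

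The fold changes of experiments A and B, which share no library, can be set side by side for 42 genes. Mfap4, Mfap5 and Bgn were called in both, 42.9% of the calls of either experiment, and 0.356% of all 11806 genes tested in both were called higher in both. Of the 42, 31 had a fold change above 0 in both experiments, against 24.2% of all genes, 1, Efemp1, below 0 in both (but above 0 in experiment B after TMM scaling or quantile normalization), 3 above 0 in experiment A alone and 7 above 0 in experiment B alone. The log2 fold changes had a Pearson correlation of 0.68 and a Spearman correlation of 0.67 over the 42 genes, given as a description since genes of 1 library are not independent. The log2 fold change was larger in experiment B for 38 of the 42, against 41.8% of all genes, with different ages, alleles, library kits and units. Mfap4, Mfap5, Bgn, Igfbp7, Sparc, Cilp and Mgp, 7 of the 42, were higher without overlap in both, against 1.15% of all genes. Eln and Tnc stood out by their unequal values, at 0.31 and 0.88 in experiment A and 3.57 and 3.01 in experiment B; the difference between the experiments was not tested.

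**Figure D4:**
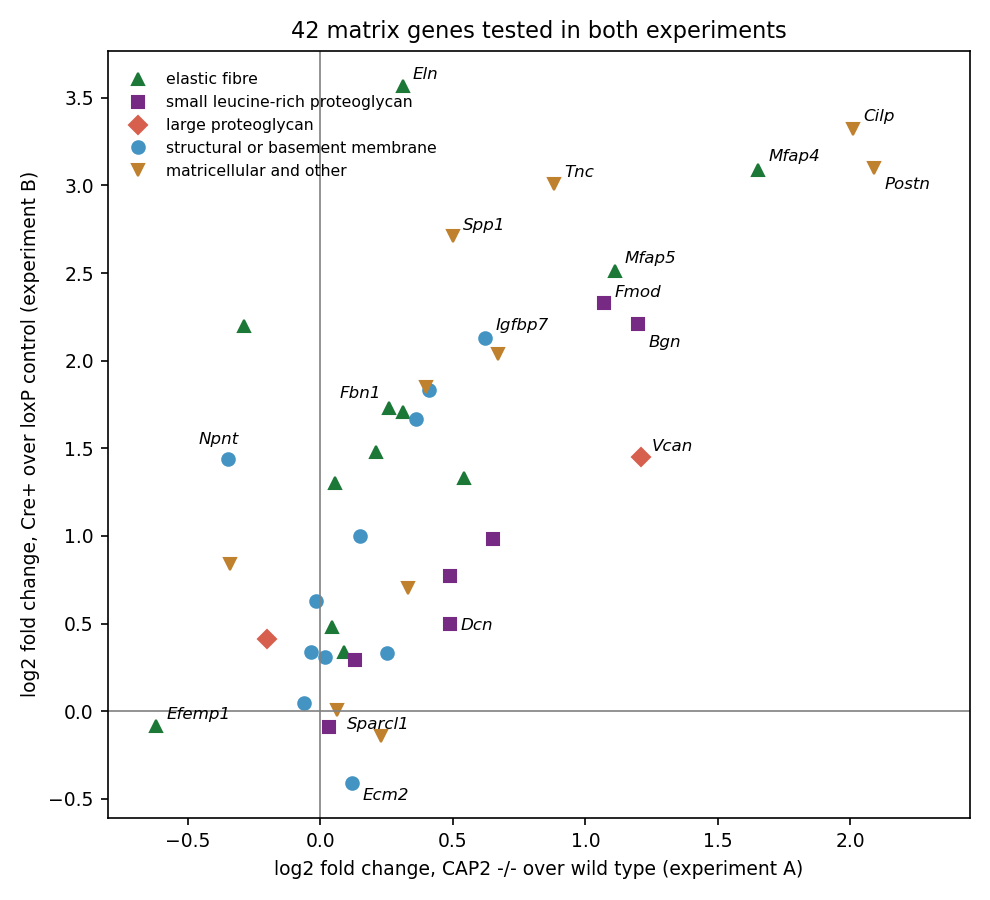
Log2 fold changes of the 42 matrix genes tested in both experiments, CAP2 -/- over wild type on the x axis and Cre+ over loxP control on the y axis, with a symbol for each class. Most points lie in the upper right of the plot, 31 of the 42, with Postn, Cilp and Mfap4 farthest out and Eln high on the y axis alone.

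Some related genes differed in their fold changes and others did not. Ratios within 9 pairs of relatives were examined in each library as the log2 of the level plus 1 of one gene minus that of the other. The pairs were chosen after their values were seen, so the ratios are given as a description, with no test. The log2 ratio of Sparc over Sparcl1 ranged over 1.69 to 3.63 in Cre+ hearts (n = 4) and -0.10 to 1.23 in loxP controls (n = 5), and the means differed by 1.95. That of Bgn over Dcn averaged 1.17 ± 0.57 in Cre+ hearts and -0.65 ± 0.56 in loxP controls, with ranges of 0.61 to 1.69 in Cre+ hearts and -1.60 to -0.17 in loxP controls. Neither ratio overlapped between the groups, so Bgn exceeded Dcn in each Cre+ heart and fell short of it in each control. In experiment A the ratio of Sparc over Sparcl1 averaged -0.41 ± 0.22 in CAP2 -/- hearts and -0.72 ± 0.20 in wild type (SD, n = 3 each), and that of Bgn over Dcn 0.14 ± 0.65 in CAP2 -/- hearts and -0.54 ± 0.18 in wild type, and both overlapped. Ratios that were apart without overlap in experiment A were Mfap5 over Mfap2, at 4.03 ± 0.33 in CAP2 -/- hearts and 2.79 ± 0.24 in wild type, Fbln2 over Fbln1, at 0.63 ± 0.10 in CAP2 -/- hearts and 0.13 ± 0.19 in wild type, Efemp2 over Efemp1, at 0.55 ± 0.18 in CAP2 -/- hearts and -0.084 ± 0.29 in wild type, and Fmod over Lum, at -2.39 ± 0.45 in CAP2 -/- hearts and -3.16 ± 0.11 in wild type. The nidogens kept nearly the same ratio in both experiments, with Nid1 over Nid2 at 2.16 ± 0.13 in CAP2 -/- hearts and 2.10 ± 0.17 in wild type, and at 2.98 ± 0.41 in Cre+ hearts and 3.06 ± 0.30 in loxP controls.

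**Figure D5:**
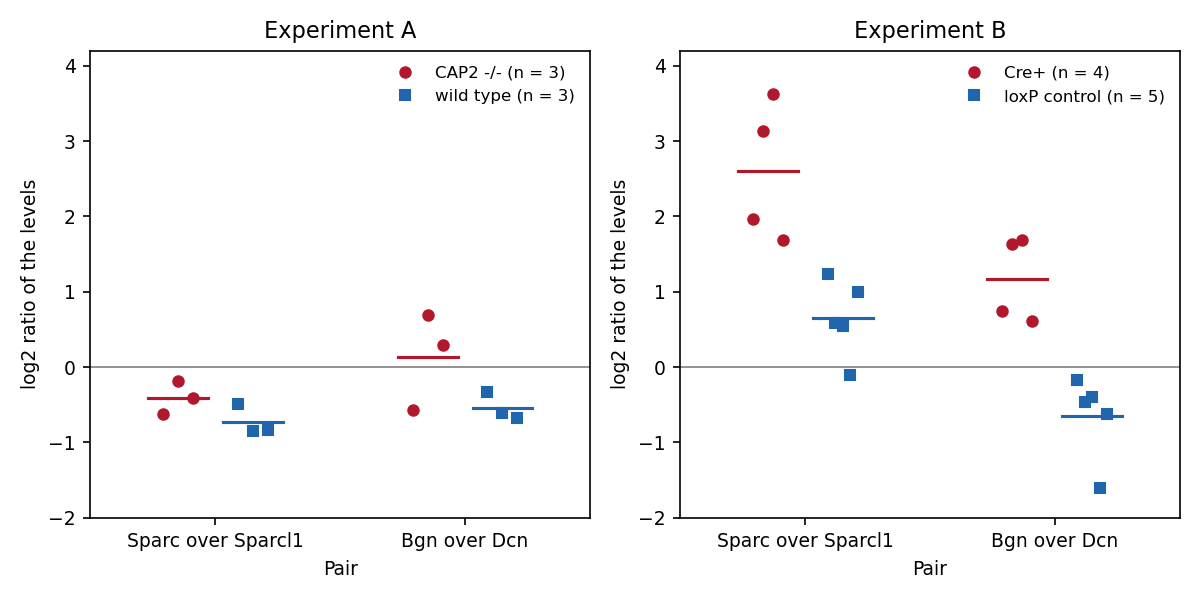
Log2 ratio of Sparc over Sparcl1 and of Bgn over Dcn in each library, experiment A on the left and experiment B on the right. Circles are CAP2 -/- or Cre+ libraries, squares wild-type or loxP control libraries, and bars group means. In experiment B the Cre+ libraries lie above all loxP controls for both pairs, with Bgn over Dcn above 0 in Cre+ and below 0 in the controls.

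Genes that assemble and cross-link elastic fibres were followed beside the 43. Of 16 such genes tested in experiment A, 2 rose and none fell. DESeq2 also called Lox higher. At an unadjusted p under 0.05, 4 were higher and 1, Emilin2, was lower (log2 fold change -0.51). Adamtsl2, which binds fibrillin, had 57, 92.7 and 75.9 CPM in CAP2 -/- hearts, against 27, 21.5 and 28.3 CPM in wild type (log2 fold change 1.55, SE 0.17, edgeR adjusted p = 2.02e-04). Ltbp2, a latent TGF-beta binding protein of microfibrils, had 22, 28.2 and 35.2 CPM in CAP2 -/- hearts, against 6.5, 2.46 and 3.05 CPM in wild type (log2 fold change 2.76, SE 0.34, edgeR adjusted p = 0.00393). Of 15 tested in experiment B, 4 rose and none fell, namely Ltbp2 (log2 fold change 3.74), Adamtsl2 (2.86) and the lysyl oxidase genes Loxl1 (2.20) and Loxl3 (1.91), with limma adjusted p values of 0.0437, 0.0432, 0.0393 and 0.0393. The groups of each gene did not overlap in the experiment in which it was called. At an unadjusted p under 0.05, 9 of the 15 were higher in experiment B and 1, Emilin2, was lower (log2 fold change -0.75). Over all genes tested, 0.841% were called higher and 0.509% lower in experiment A, and 0.947% and 0.931% in experiment B. The shares at an unadjusted p under 0.05 were 5.11% higher and 5.32% lower in experiment A, and 7.89% and 14.2% in experiment B. These shares also apply to the lists that follow.

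Other proteoglycans, other glycoproteins and matrix receptors gave few calls. Of 16 other proteoglycan and synthesis genes tested in experiment A, edgeR and DESeq2 called none, with 2 higher and 1 lower at an unadjusted p under 0.05, and of 15 in experiment B limma called none, with 4 higher at an unadjusted p under 0.05. Of 16 other glycoproteins, edgeR called none in experiment A, with 3 higher and 3 lower at an unadjusted p under 0.05, while DESeq2 called Svep1 higher and Vtn lower. In experiment B Svep1 (log2 fold change 2.26) and Smoc1 (2.39) rose and Egflam, pikachurin, which binds dystroglycan, fell (-1.23, limma adjusted p = 0.0477). At an unadjusted p under 0.05, 4 of these 16 were higher there, against 7.89% of all genes, and 5 lower, against 14.2%. Of 18 receptor genes, edgeR called none in experiment A, with 3 higher at an unadjusted p under 0.05, and DESeq2 called Itga9. In experiment B the collagen receptor gene Ddr1 rose, with 138, 202, 284 and 180 normalized counts in Cre+ hearts, against 71, 62, 84, 108 and 111 in loxP controls (log2 fold change 1.23, SE 0.26, limma adjusted p = 0.0432). It was the only receptor gene called there, but 9 of the 18 were higher at an unadjusted p under 0.05, against 7.89% of all genes. None was lower, against 14.2%. Of the 18, 14 had fold changes above 0, with a median log2 fold change of 0.94, against -0.12 over all genes.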

How the data were processed

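RNA was sequenced in 6 hearts of experiment A (Ion Total RNA-Seq Kit v2) and 9 of experiment B (TruSeq stranded mRNA), per the labels' protocols. The submitters' processing notes name mm10, STAR 2.6.0c and DESeq without roles, and which tool made each table is not stated. Estimated counts per gene and exon were deposited for experiment A. They also deposited a table of fold changes (log2), a mean normalized signal, a test score and p-values. For experiment B the authors deposited normalized counts as whole numbers, used here as a score because the normalization is not stated; the depth is unknown.

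Estimated counts were rounded and tested with edgeR 4.0.16 (quasi-likelihood, TMM, filterByExpr) in R 4.3.3, with CPM from TMM-adjusted totals. Genes of experiment B whose normalized counts averaged 10 or more were tested as log2(value + 1) with robust limma 3.58.1 (trend), sex as a covariate. P-values were adjusted by Benjamini-Hochberg over all genes tested, with a threshold of 0.05. Alternatives included DESeq2 1.42.0, other scalings, filters and pseudocounts, further covariates and leaving out each library. On simulated data with 100 genes changed by a fold of 4, 96% were recovered in experiment A (16090 genes) and 65% in experiment B (12141 genes). With a fold of 2, 75.8% were recovered in experiment A and 13% in experiment B. Of the calls in the simulated data, 9 of 180 were false in experiment A and 3 of 81 in experiment B. The simulated noise was independent between genes and no sex effect was added. In the real libraries matrix genes moved together, so these rates may not hold there. Same-numbered replicates did not deviate together, so replicate numbers were not used as a block. The 43 genes and all lists were chosen with earlier results of these data known. Named genes are those called, the 5 with the highest level per length and the 3 tested but uncalled with the largest log2 fold change. The other members are given by range and count, and further values were added after they were seen. Promoter sequences are from RefSeq (GRCm38.p6), and exon annotation and transcript lengths from GENCODE M21.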

Additional observations from a re-analysis of the deposited data

Results flagged for a closer look

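For the 43 genes, 86 groups of 4 or 5 libraries were examined in experiment B, 2 per gene. In 6 of these groups 1 library stood far from the others of its own group. The measure was the gap to the next library divided by the range of the group, 0.788 or more in the 6. Chance gives about 1 in 20 for independent groups of normally distributed values. Here the genes share the same libraries, and the values were normalized counts without a log scale. The count thus cannot be set against that rate. Cre+ replicate 3 was the highest of its group for Emilin1 (770 normalized counts, next 389), Spp1 (69, next 20) and Spon1 (727, next 293). LoxP control replicate 5 was the highest of its group for Aspn (273, next 184) and Npnt (178, next 25), and loxP control replicate 3 for Fbn2 (47, next 9). The groups of 3 libraries in experiment A were too small to be examined in this way.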

How the results depend on the processing

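Every matrix gene call stayed in the higher direction under each alternative tried, while counts of calls moved. In experiment A DESeq2 called 400 genes and 11 matrix genes, and no filter on low counts gave 512 and 12. Leaving out 1 library gave 126 to 275 genes and 3 to 12 matrix genes. In experiment B no filter on low values gave 346 genes, females alone 12 matrix genes, the mitochondrial share as a covariate 36 genes and 0 matrix genes, and the atrial marker level, chosen after seeing the data, 20 and 0. The median log2 fold change of the 43 was 1.34 with the mitochondrial share and 0.56 with the atrial markers, against 1.33 in the fit reported. Leaving out 1 library gave 39 to 695 genes and 0 to 18 matrix genes. The causes were not tested. The Fn1 exon difference ran from -8.89 to -1.59 percentage points.

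Replicate numbers did not pair the samples: same-numbered libraries had correlations of -0.166, -0.152 and -0.0309 in experiment A and 0.24, -0.113, 0.182 and 0.0332 in experiment B. A replicate block gave 9 matrix genes in experiment A, and 394 genes and 19 matrix genes in experiment B.

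Log2 fold changes changed sign for these uncalled genes. In experiment A they became -0.09 for Fbn2 with the replicate block and -0.0067 for Nid1 with no filter. In experiment B Efemp1 was 0.013 with TMM, 0.032 with quantile normalization, 0.15 with the mitochondrial share and 0.10 with the replicate block. Ogn was 0.0031 with TMM and 0.19 in females, Tnxb -0.34 in females, Nid1 -0.035 and Nid2 -0.047 with the mitochondrial share. Sparcl1 was -0.092 with quantile normalization and -0.023 without the sex term. With the atrial markers Fbn2 was -0.39, Fbln1 -0.23, Lum -0.22, Tnxb -0.29, Npnt -0.31, Dpt -0.56 and Sparcl1 -0.11. The difference in Spon1 over Spon2 was 0.12 with a pseudocount of 10.

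Without 1 library the sign also changed, in experiment A for Fbn2 (-0.44 to 0.46), Eln (-0.024 to 0.70), Fbln1 (-0.0071 to 0.12), Efemp2 (-0.11 to 0.23), Ogn (-0.068 to 0.17), Hspg2 (-0.34 to 0.021), Tnxb (-0.25 to 0.16), Nid1 (-0.061 to 0.12), Nid2 (-0.19 to 0.12), Matn2 (-0.21 to 0.22), Sparcl1 (-0.038 to 0.12), Spp1 (-0.38 to 1.99), Spon2 (-0.76 to 0.07), Spon1 over Spon2 (-0.031 to 1.14) and Nid1 over Nid2 (-0.0041 to 0.15). In experiment B it changed for Fbn2 (-0.31 to 0.58), Efemp1 (-0.39 to 0.25), Ogn (-0.33 to 0.19), Tnxb (-0.34 to 0.28), Sparcl1 (-0.20 to 0.16), Nid1 over Nid2 (-0.20 to 0.082), Spon1 over Spon2 (-0.46 to 0.47) and Mfap5 over Mfap2 (-0.013 to 0.72).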
